A study of Saccharomyces cerevisiae with 30 samples.

Results

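Transcript levels of budding yeast were compared on 3 arrays of pRAD7 cells taken 60 min after UV and 3 arrays of untreated pRAD7 cells, which are 6 of the 30 Affymetrix Yeast S98 arrays of the study. The 6 arrays were chosen by their sample titles, and all genes were used. The study asked how the complex of Rad4 and Rad23, and the ubiquitination of Rad4, act on transcription after UV, and the pRAD7 strain was its control. Per the labels and methods, pRAD7 cells are *rad7*Δ cells of the haploid strain BY4742 in which wild-type *RAD7* is supplied by the *HIS3* plasmid pRS313, with *RAD23* intact. The cells of all 6 samples were grown at 30°C in medium that lacks histidine, to late log phase according to the sample labels and in logarithmic growth according to the design text. The irradiated cells received 100 J/m2 of UV at 254 nm. *RAD7* thus came from a plasmid and not from the chromosome, and the untreated arrays carry no matched time after a mock irradiation, so UV and the 60 min of handling cannot be told apart. The replicates are called biological in the labels without a statement on separate cultures, so that the spread behind every p-value is that among these samples alone and may be technical.

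UV light joins neighbouring pyrimidines in DNA, and the lesions block RNA and DNA polymerases until nucleotide excision repair removes them. In yeast the damage signal passes through the kinases Mec1, Rad53 and Dun1 to the repressor Crt1, encoded by *RFX1*, which releases the genes of ribonucleotide reductase and other targets. The same cells also run the general stress program, in which the activators Msn2 and Msn4 raise genes of carbohydrate storage, protein folding and peroxide defence while the genes that build ribosomes are turned down.

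The strain markers were those of a haploid *MATα* strain. Among the nutritional markers *LEU2* had 3.08 to 14.9 at 60 min, against 18.5 to 42.1 untreated, and *LYS2* was at most 7.08 on any array. The deposited *RAD23* signal was between 1499 and 1572 at 60 min, against 1005 to 1192 untreated, *URA3* was at most 9.78 on any of the 6 arrays, and *HIS3*, carried by the plasmid, was between 5968 and 6574 at 60 min, against 6900 to 8747 untreated. The 4 measured genes of the alpha mating type had a median signal of 2968 at 60 min, against 6236 untreated. The 7 genes of the a mating type summed to 408 to 581 at 60 min, against 150 to 247 untreated, and 6 of them lay below the filter on dim genes, with *ASG7* at most 3.36 at 60 min. The 28 genes of meiosis and sporulation summed to 1382 to 1483 at 60 min, against 998 to 1125 untreated, with 1 above the filter, and the part of these low signals in the results below was not tested. The ratio of 3′ to 5′ signal of the *ACT1* control, a measure of RNA integrity, was 1.13 to 1.26 at 60 min, against 1.16 to 1.21 untreated. It was 2.58 to 3.40 at 60 min, against 2.13 to 3.36 untreated for *SPT15*, and 2.71 to 4.32 at 60 min, against 3.08 to 3.33 untreated for *SRB4*. Of 10 ribosomal RNA control probe sets 5 were higher at 60 min without overlap, 1 was lower and 4 overlapped, and the part of these controls in the results was not tested. The arrays of a group correlated at 0.97 to 0.98 at 60 min and 0.97 to 0.98 untreated, whereas arrays of different groups correlated at 0.70 to 0.76 across genes, which are not independent replicates.

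An hour after UV most measured transcripts had moved. Of 4242 genes tested, 2749 (64.8%) passed an adjusted p of 0.05 in limma, 1219 (28.7%) higher at 60 min and 1530 (36.1%) lower. A change of at least 2-fold was found in 1270 genes (29.9%), upward in 546 (12.9%) and downward in 724 (17.1%). The arrays of the groups did not overlap in 2997 genes (70.7%). These shares are the background against which the gene groups below are to be read. Changes are given as log2 ± SE, 60 min minus untreated, on centred signals, in which each array has been set to one median. Centring matters here, because the median change of all genes was -0.11 after centring, 0.16 in the values as deposited and -0.03 after quantile normalization. Of the genes called, 44.3% were higher after centring, 60.3% in the deposited values and 49.1% after quantile normalization. Under all 3 scalings 1216 genes (28.7%) were higher and 1045 (24.6%) were lower. Centring gave the lowest median of the 3, so that rises called after centring hold almost by construction and falls do not. Calls in both directions depend on scaling. The number higher was 1219 after centring, 1669 in the deposited values and 1361 after quantile normalization, and the number lower was 1530, 1100 and 1409. As RNA of whole cultures was measured, fewer cells with a transcript and less of it per cell cannot be told apart, and precision is set by the 3 arrays of each group.

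The target genes of the damage signal rose, and the size of the rise differed widely between them. *RNR3*, a large subunit of ribonucleotide reductase that is mostly silent in undamaged cells, had centred signals of 755, 882 and 881 at 60 min, against 78.8, 88.3 and 43.2 untreated. Every 60 min array lay far above every untreated one, a change of 12.5-fold (3.64 ± 0.22, adjusted p = 1.88e-11), read on probes that other transcripts may share. *HUG1*, a small inhibitor of the same enzyme, had 1254, 2329.6 and 1359 at 60 min, against 86.4, 70.8 and 74.9 untreated (20.5-fold, 4.36 ± 0.23). The second array was the highest of the 60 min group, and the groups did not overlap. *YLR345W*, a relative of the enzymes that make and break fructose 2,6-bisphosphate, had 1027, 809 and 745 at 60 min, against 153, 132 and 180.5 untreated (2.47 ± 0.28). The small subunit genes moved less. *RNR2* had 3264, 2836 and 2917 at 60 min, against 1337, 1505 and 1321 untreated (1.12 ± 0.16), and *RNR4* had 5341, 5549.9 and 4687 at 60 min, against 3362, 2939 and 3419 untreated (0.68 ± 0.10). *RNR1*, the main large subunit, had 978, 1201 and 1401 at 60 min, against 1039, 1138 and 1209 untreated. These groups overlapped, and the interval of the change was -0.24 to 0.38 (95%), so that a rise as large as that of *RNR2* lies outside it. Of 10 tested genes under Crt1, 9 rose, all of them under the 3 scalings (median 0.93), and *NPL3* (-0.34 ± 0.16, adjusted p = 0.0723), named after its value was seen, was the member not called.

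**Figure D1:**
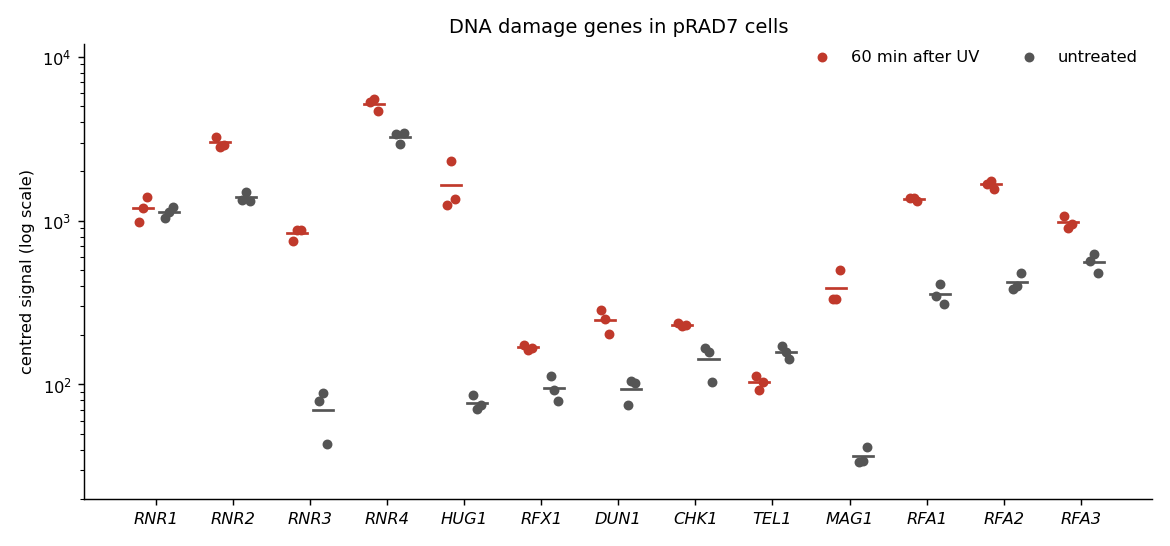
Centred signal (log scale) of 13 DNA damage genes on the 3 arrays taken 60 min after UV (red, left of each pair) and the 3 untreated arrays (grey, right), with the mean of each group as a bar. *RNR3* (12.5-fold), *HUG1* (20.5-fold) and *MAG1* (10.5-fold) lie far above their untreated arrays, *RNR1* overlaps and *TEL1* is lower at 60 min.

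Regulators of the enzyme also changed. *DUN1*, the kinase that acts on Crt1 and on the inhibitor Sml1, had 285, 252 and 202 at 60 min, against 74.9, 105 and 103 untreated (1.39 ± 0.15, adjusted p = 5.13e-08). *RFX1* itself had 175, 161 and 168 at 60 min, against 113, 93.0 and 79.7 untreated (0.84 ± 0.16). Neither gene overlapped between the groups. *SML1* read -0.41 ± 0.11 (adjusted p = 0.00316), a call that was lost in the deposited values and turned to 0.20 after quantile normalization. Across 16 genes of ribonucleotide reductase and nucleotide supply 8 rose and 4 fell. The deepest fall was that of *DFR1*, dihydrofolate reductase, which supplies the folate for thymidylate synthesis. It had 91.9, 82.9 and 78.5 at 60 min, against 236, 291 and 256 untreated (-1.63 ± 0.15), with no overlap. Beside *SML1* the others that fell were *DCD1* (-1.28) and *DUT1* (-0.98), which act in the synthesis of thymidylate precursors and were named after their values were seen.

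Among the upstream kinases *CHK1* rose (0.73 ± 0.19) and *TEL1*, the ATM homologue, read -0.61 ± 0.15 (adjusted p = 0.00113), a call lost in the deposited values. *MEC1*, *RAD53* and *RAD9* lay below the filter on dim genes and were not tested in the main fit. Their deposited signals were 58.0, 52.0 and 73.4 at 60 min, against 131, 117 and 121 untreated for *MEC1*, and 80.8, 72.5 and 71.3 at 60 min, against 32.3, 37.3 and 30.9 untreated for *RAD53*. For *RAD9* they were 31.7, 48.3 and 42.1 at 60 min, against 112, 125 and 82.1 untreated. Thus in deposited signals *RAD53* was higher on all 3 arrays at 60 min, while *MEC1* and *RAD9* were lower on all 3. These signals are not centred. Centring moves the 60 min arrays by -0.33 to -0.30 on the log2 scale and the untreated ones by -0.11 to 0.01. The rise of *RAD53* would thus be smaller and the falls deeper on centred signals. An exact permutation test of 3 arrays against 3 cannot go below a two-sided p of 0.10. The protein phosphatases *PTC2* and *PTC3*, which switch off Rad53, moved apart: *PTC3* rose by 1.06 ± 0.15 and *PTC2* fell (-0.87 ± 0.15). *ASF1*, a histone chaperone bound by Rad53, rose by 1.23 ± 0.20.

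Repair genes differed by pathway. In base excision repair and photoreversal 5 of 9 tested genes rose and 1 fell, and in recombination and end joining, a list that holds the single-strand binding protein RPA, 5 of 8 rose and 0 fell, with 17 more below the filter on dim genes. *MAG1*, a DNA glycosylase for alkylated bases, had 334, 335 and 498 at 60 min, against 33.8, 33.9 and 41.6 untreated (10.5-fold, 3.40 ± 0.20, adjusted p = 1.52e-11). The RPA subunit genes *RFA1* (1383, 1383 and 1317 at 60 min, against 345, 408 and 311 untreated) and *RFA2* (1682, 1754 and 1570.1 at 60 min, against 383, 402 and 478 untreated) rose by 1.95 ± 0.16 and 1.99 ± 0.17. *RFA3* of the same trimer had 1076, 899 and 952 at 60 min, against 570.2, 628 and 482 untreated, a smaller rise of 0.80 ± 0.14. In all 3 subunits the groups stood apart. Of 18 tested genes of nucleotide excision repair 3 rose and 5 fell, below the background shares. The 3 rises but only 1 of the falls held under all 3 scalings, and 7 more genes lay below the filter. *SSL2*, a helicase of TFIIH, rose by 1.12 ± 0.10, *RAD2*, the 3′ endonuclease, by 0.70 ± 0.18 and *ELC1*, a subunit of the Rad7 ubiquitin ligase, by 0.70 ± 0.13, whereas *TFB1* of TFIIH fell (-0.65 ± 0.17). *CUL3*, the cullin of that ligase, read -0.57 ± 0.18, a call lost in the deposited values and without 60 min replicate 1 or untreated replicate 1 (adjusted p up to 0.0664). *RAD7* (0.37 ± 0.23, adjusted p = 0.158) and *RAD23* (0.25 ± 0.17, adjusted p = 0.196) were not called. *RAD4* lay below the filter, with deposited signals of 110.5, 107 and 112 at 60 min, against 80.1, 69.1 and 57.7 untreated, and so did *RAD16*, with 142, 56.2 and 121 at 60 min, against 42.5, 122 and 28.7 untreated. In these deposited signals, which are not centred, the *RAD4* arrays did not overlap between the groups and those of *RAD16* did.

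In damage tolerance genes and in *RAD52* the changes were smaller than those of *RFA1* and *RFA2*. *UBC13* and *MMS2*, which together build the ubiquitin chains on PCNA, rose by 0.78 ± 0.12 and 0.66 ± 0.13, and the helicase gene *SRS2* fell (-1.06 ± 0.16). *RAD52*, the main recombination mediator, rose by 0.51 ± 0.13. Of 30 genes of replication origins and forks 6 rose and 11 fell, 7 of the latter under every scaling (median -0.03). Over all genes 28.7% were higher and 36.1% lower. The share of falls is thus near the background, and no direction is given for the group. The primase gene *PRI2* rose by 1.18 ± 0.18, while the helicase loader and helicase genes *ORC1* (-1.20 ± 0.18), *MCM2* (-1.31 ± 0.18) and *MCM7* (-1.59 ± 0.17) fell.

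The largest rises of the whole response belonged to stress and carbohydrate genes. At least 16-fold rises were found in 38 genes (0.896%). *RTN2*, a reticulon of the endoplasmic reticulum, had 798, 811 and 970.4 at 60 min, against 8.87, 12.6 and 16.1 untreated (70.3-fold, 6.14 ± 0.51). Its untreated signals were close to the floor of 8.50, below which values were set to the floor, so that its fold rests on dim signals. *RTC3* had 4459, 3586 and 3653 at 60 min, against 67.2, 59.3 and 43.2 untreated (69.7-fold). *SOL4*, a 6-phosphogluconolactonase, had 4857, 3625 and 3783 at 60 min, against 67.6, 68.1 and 58.5 untreated (62.8-fold). *FMP16*, a mitochondrial protein gene, had 4103, 2638 and 3727 at 60 min, against 56.8, 61.0 and 51.5 untreated (60.9-fold). No array of these genes came near the other group. Behind them followed the cytosolic catalase *CTT1* (48.2-fold), the glutamate decarboxylase *GAD1* (46.8-fold), *TMA10* (45.2-fold), the minor cytochrome c *CYC7* (45.0-fold), *MSC1* (44.5-fold), the hexokinase *HXK1* (41.2-fold), *RGI1* (32.6-fold) and *EGO4* (31.9-fold). *HXK1* had 5940.4, 5596 and 5773 at 60 min, against 108, 206 and 123 untreated.

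As a group the 34 tested genes under Msn2 and Msn4 all rose, with changes between 0.33 and 6.14 (median 4.24, against -0.11 over all genes). They had been listed as stress targets with earlier results known. Genes of trehalose and glycogen rose in 15 of 16 cases (median 2.88). *TSL1*, a subunit of trehalose synthase, had 2820.1, 2259 and 2084 at 60 min, against 85.5, 99.6 and 92.7 untreated (4.68 ± 0.38). *GLC3*, the glycogen branching enzyme, rose by 4.50 ± 0.51 and *GPH1*, glycogen phosphorylase, by 4.35 ± 0.57, so that genes of making and of breaking glycogen rose together. The member that fell was *PGM1*. In peroxide and superoxide defence 20 of 32 genes rose and 3 fell. The mitochondrial peroxiredoxin *PRX1* had 2106, 1818 and 1772 at 60 min, against 125, 151 and 115 untreated (3.87 ± 0.27), and *TSA2* had 1513, 1135 and 1387 at 60 min, against 99.2, 116 and 79.6 untreated (3.78 ± 0.26). Neither overlapped. *SKN7*, an activator of peroxide defence genes, was the deepest fall of the group (-1.16 ± 0.27). In the bypass that takes glutamate to succinate, and among the aldehyde dehydrogenases, 6 of 9 genes rose. *ALD3* had 1289.6, 632 and 1074 at 60 min, against 34.7, 29.3 and 30.1 untreated (4.93 ± 0.36), and *ALD5*, a mitochondrial enzyme of the family, fell (-0.77 ± 0.20).

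**Figure D2:**
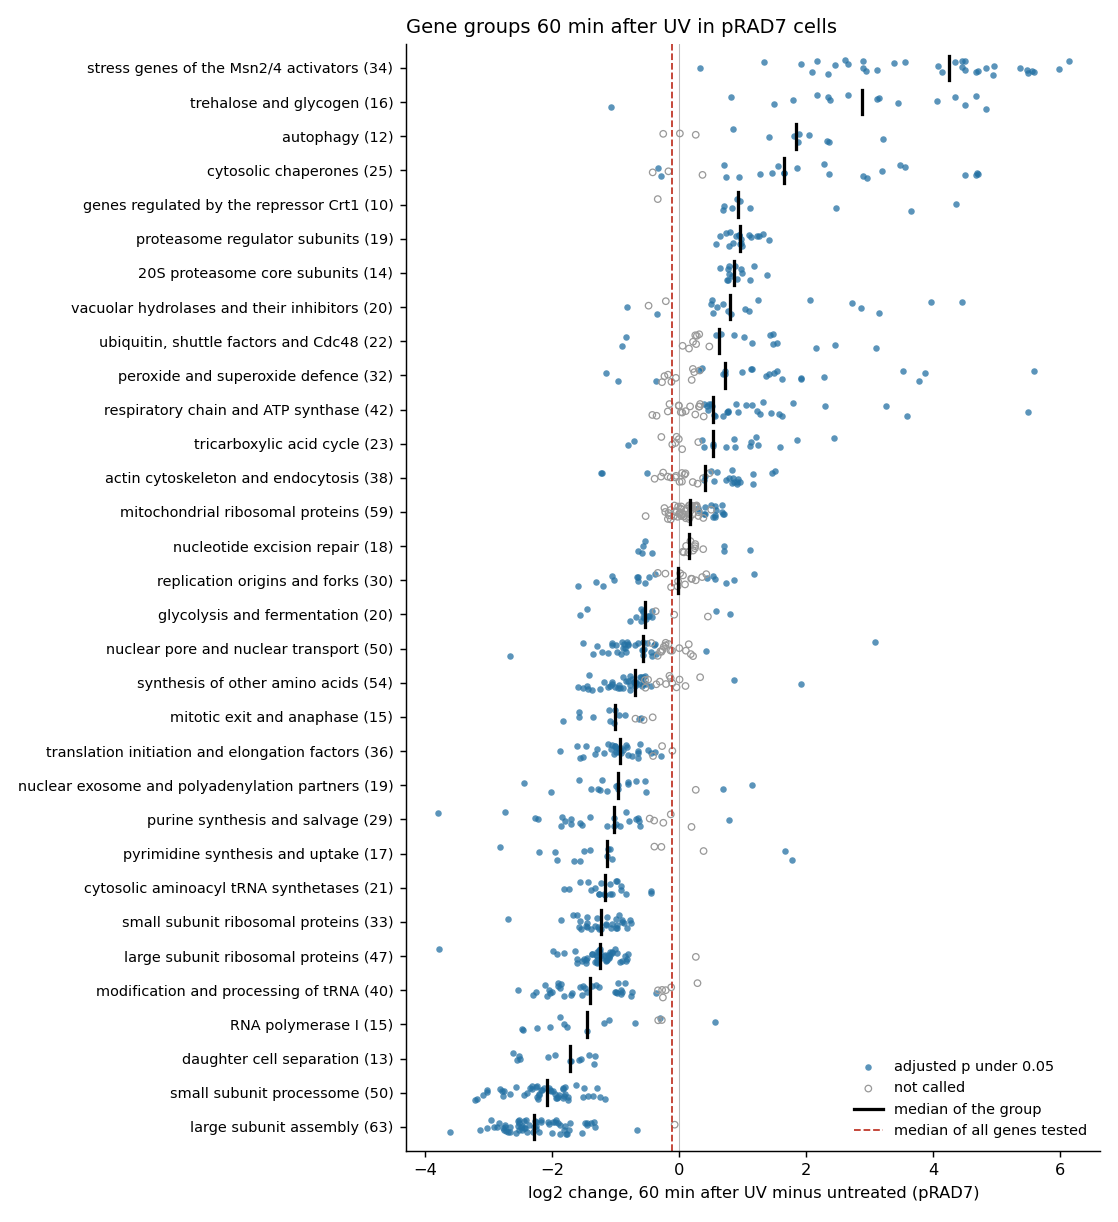
Log2 change at 60 min against untreated (horizontal axis) of the tested members of 32 gene groups, with the number tested in brackets, filled points for genes called at an adjusted p under 0.05, a black bar for the median of each group and a dashed line for the median of all 4242 genes (-0.11). Groups run in an order set by hand, and the median lies at 4.24 in the stress genes of Msn2/4 and at -2.30 in large subunit assembly.

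Carbon metabolism did not move as a block. Of 14 genes of the pentose phosphate pathway 8 rose and 3 fell. *NQM1*, a transaldolase, had 909.6, 584 and 642 at 60 min, against 31.1, 27.0 and 28.9 untreated (24.1-fold, 4.59 ± 0.19, adjusted p = 2.75e-14). *RKI1*, ribose 5-phosphate isomerase, which has no second copy, had 63.6, 102 and 82.3 at 60 min, against 503, 560.3 and 583 untreated (-2.75 ± 0.27). The groups were well separated in both genes. Hexose transport showed the same mixture, with 5 of 11 genes of hexose uptake and phosphorylation higher and 5 lower. The high-affinity transporter *HXT6* had 4795, 5456 and 5689 at 60 min, against 555, 524 and 552 untreated (3.29 ± 0.46), read on shared probes, so that its near copy *HXT7* cannot be told apart from it. *HXT2* fell (-1.72 ± 0.52). Glycerol and osmotic stress genes rose in 11 of 21 cases and fell in 5, *GCY1*, a glycerol dehydrogenase, by 4.19 ± 0.36 upward. Glycolysis and fermentation genes read lower in 15 of 20 cases (median -0.54), but only 3 of these falls held under all 3 scalings and the median was 0.10 after quantile normalization, so that no direction is given for the group.

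Mitochondrial energy genes were higher. In the respiratory chain and ATP synthase 27 of 42 genes rose and 0 fell (median 0.53), and in the tricarboxylic acid cycle 14 of 23 rose and 2 fell (median 0.53). The regulators of ATP synthase were among them. *INH1*, its inhibitor, had 649, 553 and 573 at 60 min, against 115, 135 and 112 untreated (2.30 ± 0.33), and *STF2* had 4494, 4014 and 4125 at 60 min, against 416, 463 and 225 untreated (3.58 ± 0.40). *SDH2* of succinate dehydrogenase rose by 2.43 ± 0.33 and malate dehydrogenase *MDH1* by 1.86 ± 0.25. The groups did not overlap in these genes. Mitochondrial import was mixed, 5 of 31 genes higher and 12 lower, 2 of them under all 3 scalings. *MIA40*, the receptor for oxidative folding in the intermembrane space, had 873, 783 and 777 at 60 min, against 285, 213 and 235 untreated (1.74 ± 0.16, adjusted p = 3.66e-09), whereas *TOM20*, a receptor on the outer membrane, fell (-0.69 ± 0.11). Of 59 mitochondrial ribosomal protein genes 15 rose and 0 fell, a share close to the background of 28.7%.

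Genes of protein folding and breakdown rose. Of 25 cytosolic chaperone genes 20 rose (median 1.65) and 2 fell, neither of these under all 3 scalings. *HSP26*, a small heat shock protein, had 6322, 5142 and 5043 at 60 min, against 139.6, 438 and 149.9 untreated (26.2-fold), and *HSP42*, another, had 3935, 3127 and 3901 at 60 min, against 192, 136 and 158 untreated (22.6-fold). The untreated arrays of *HSP26* spread over a wide range, those of *HSP42* did not, and neither group overlapped. The chaperonin CCT and its partner prefoldin were different, with 1 of 14 genes higher and 2 lower, the prefoldin genes *PAC10* (-1.14 ± 0.12) and *GIM5* (-0.96 ± 0.12). Endoplasmic reticulum folding genes rose in 5 of 19 cases and fell in 3, none of the falls under all 3 scalings.

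The proteasome rose as a whole and by small, even amounts. All 14 core subunit genes were higher by 0.64 to 1.38 (median 0.85) and all 19 regulator subunit genes by 0.57 to 1.42 (median 0.96), under every scaling. *PRE7* had 2462, 2736 and 2585 at 60 min, against 1013, 906 and 1077 untreated, and *RPN12* had 981, 1381 and 1242 at 60 min, against 457, 409 and 472 untreated. Of 14 genes for proteasome activation, assembly and adaptors 12 rose, with *ECM29*, which holds core and regulator together, by 2.04 ± 0.19 and the ubiquitin ligase *HUL5* by 1.57 ± 0.22. *CIC1*, known both as a proteasome adaptor and as a ribosome assembly factor, had 154, 259 and 216 at 60 min, against 1079.7, 1206 and 926 untreated (-2.38 ± 0.29). Among 22 genes of ubiquitin handling 12 rose and 2 fell. *UBI4*, the polyubiquitin gene, had 4201, 3583 and 3453 at 60 min, against 391, 649.5 and 331 untreated (3.09 ± 0.23), and *DDI1*, the neighbour of *MAG1*, had 744, 897 and 741 at 60 min, against 199.6, 142 and 196 untreated (2.16 ± 0.15). Both lay apart from their untreated arrays. *RPS31*, which makes ubiquitin as a fusion to a ribosomal protein, read -0.91 ± 0.18 and was not called after quantile normalization.

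Vacuolar breakdown and autophagy genes were also higher. Of 12 tested autophagy genes 9 rose and 0 fell (median 1.83), and 16 more lay below the filter. *ATG8*, the ubiquitin-like protein of the growing autophagosome, had 1623, 1681 and 1797 at 60 min, against 211, 158 and 190.2 untreated (9.19-fold, 3.20 ± 0.25). The selective receptors *ATG19* and *ATG34* rose by 2.33 ± 0.29 and 2.36 ± 0.33, and the enzyme *ATG3* by 2.05 ± 0.20. Among 20 vacuolar genes 16 rose and 2 fell. Protease inhibitors led this group: *TFS1*, an inhibitor of carboxypeptidase Y, had 6397, 5140.1 and 6024 at 60 min, against 247, 347 and 223 untreated (21.8-fold), and *PAI3*, an inhibitor of proteinase A, had 1155, 614 and 867 at 60 min, against 52.2, 63.0 and 49.1 untreated (15.6-fold). The aminopeptidase *APE1*, which reaches the vacuole by the selective autophagy route, had 4062, 2836 and 3359.9 at 60 min, against 379, 674 and 398 untreated (7.25-fold). The groups were separate in all 3 genes. Members of the polyphosphate polymerase went the other way, *VTC2* with -0.82 ± 0.19.

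In several enzyme families the copies moved in opposite directions. Of 38 pairs of related genes, written down with these values known, 15 had a copy that rose and a copy that fell, 8 rose in both, 3 fell in both and in 12 a copy was not called. Under all 3 scalings 9 of the 15 remained split. *TKL2*, a transketolase, had 1161, 646 and 971 at 60 min, against 58.0, 49.9 and 61.9 untreated (4.0 ± 0.32), while *TKL1* had 1849.7, 2157 and 1964 at 60 min, against 4163, 3747 and 5142 untreated (-1.12 ± 0.12). The phosphoglucomutases *PGM2* (4.83 ± 0.37) and *PGM1* (-1.08 ± 0.13) were split in the same manner. So were the glycerol 3-phosphate dehydrogenases *GPD1* (2.61 ± 0.25) and *GPD2* (-0.97 ± 0.22) and the glycerol 3-phosphatases *GPP2* (2.51 ± 0.33) and *GPP1* (-1.16 ± 0.17). The Ran GTPase of nuclear transport is encoded by *GSP1* and *GSP2*. *GSP2* had 2262, 1461 and 1739.7 at 60 min, against 164, 336 and 171 untreated (3.08 ± 0.33), and *GSP1* had 2856, 2079 and 3259 at 60 min, against 4954, 5034 and 4749 untreated (-0.87 ± 0.18). No array overlapped between the groups in either copy. The Ras genes split as well, with *RAS2* higher by 0.62 ± 0.16 and *RAS1* lower (-2.08 ± 0.18). In other pairs a single copy carried the change: *NQM1* rose and *TAL1* read 0.08 ± 0.14, *GND2* rose by 3.89 ± 0.23 with *GND1* at -0.59 ± 0.33, and *SOL4* rose with *SOL3* at 0.10 ± 0.15. For *HXK2*, *SSA2*, *HSC82*, *ROM2*, *MSN2* and *CDC19* the fall beside the risen partner did not hold under all 3 scalings. After quantile normalization *SSA2* was called higher in limma (0.35, adjusted p = 0.00222). Close copies can share probe binding, and the extent of this was not tested.

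**Figure D3:**
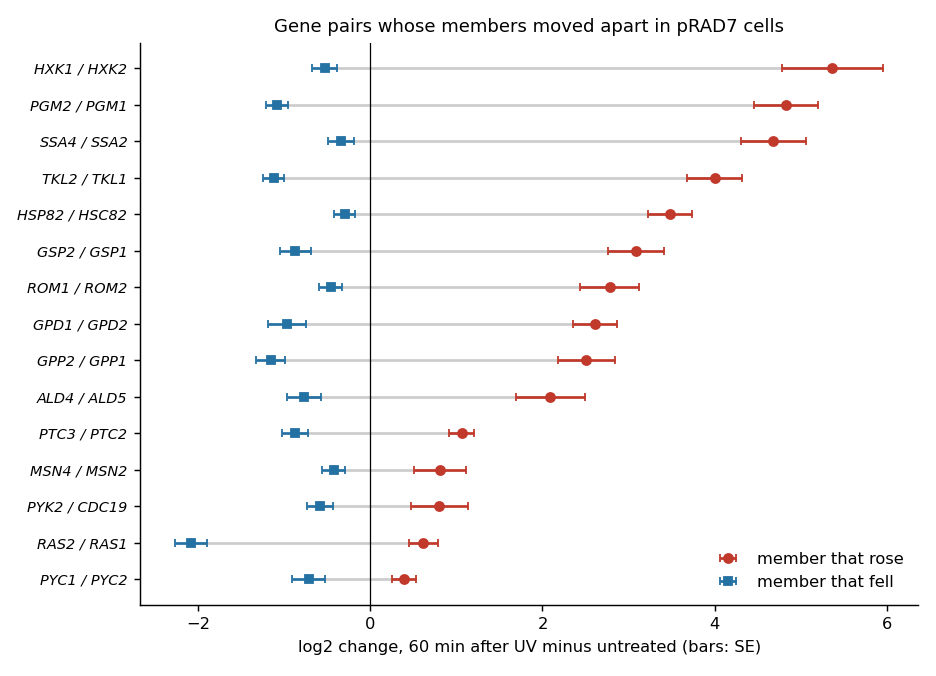
Log2 change at 60 min against untreated (bars, SE) of the 15 gene pairs in which a copy rose (red circles) and the other fell (blue squares). The split is widest in *PGM2* (4.83) and *PGM1* (-1.08), closely followed by *HXK1* (5.37) and *HXK2* (-0.53), and the fall of *HXK2*, *SSA2*, *HSC82*, *ROM2*, *MSN2* and *CDC19* did not hold under all 3 scalings. *SSA2* was called higher after quantile normalization.

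The deepest falls were in genes that build ribosomes and feed them with nucleotides. Only 11 genes (0.259%) fell at least 8-fold. *AAH1*, the adenine deaminase of purine salvage, had 108, 122 and 103 at 60 min, against 1214, 2069.6 and 1489 untreated (-3.81 ± 0.35, adjusted p = 4.93e-09). *DBP2*, an RNA helicase, had 376, 586 and 361 at 60 min, against 5083, 5080.2 and 5594 untreated (-3.61 ± 0.24). *RPL7B*, a copy of ribosomal protein L7, had 700.2, 195 and 500.4 at 60 min, against 4117, 5589 and 7782 untreated (-3.78 ± 0.38). None of the 3 genes overlapped between the groups. The regulator gene *HMS2* followed with 9.62, 29.8 and 42.3 at 60 min, against 271, 281 and 409 untreated (-3.78 ± 0.60), with its first 60 min array near the floor. The other genes of the deepest 12 act in ribosome assembly: *UTP20* (-3.21 ± 0.26), *KRE33* (-3.19 ± 0.25), *RPF2* (-3.14 ± 0.27), *HAS1* (-3.09 ± 0.24), *NSR1* (-3.03 ± 0.29), *DHR2* (-3.03 ± 0.32), *NOP13* (-3.02 ± 0.25) and *DBP3* (-2.96 ± 0.26).

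All 50 tested genes of the small subunit processome fell, by 1.18 to 3.21 on the log2 scale (median -2.09), and 62 of 63 genes of large subunit assembly fell (median -2.30), each under all 3 scalings. The exception, *NPA3* (-0.07), which is better known from the import of RNA polymerase II, was named after its value was seen. RNA polymerase I, which transcribes ribosomal RNA, fell in 12 of 15 genes, its largest subunits *RPA190* (464, 679 and 507 at 60 min, against 3092, 2705 and 3226 untreated) and *RPA135* (359.7, 525 and 439 at 60 min, against 2366, 2146 and 2836 untreated) by 2.47 and 2.48 on the log2 scale. RNA polymerase III and its factors fell in 13 of 18 cases, with *RPC82* at -2.34 ± 0.43. In RNA polymerase II 3 of 21 genes rose and 9 fell. The deepest 4 falls of that enzyme, *RPO26* (-1.39 ± 0.17), *RPB5* (-1.24 ± 0.15), *RPB8* (-1.15 ± 0.18) and *RPB10* (-1.09 ± 0.16), were all in subunits that the 3 nuclear polymerases share.

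Ribosomal protein genes fell as well, and part of their fall depends on scaling. Of 47 genes of the large subunit 46 fell, with a median of -1.25, and of 33 genes of the small subunit all fell, with a median of -1.24. After quantile normalization these medians were -0.65 and -0.70, and 42 and 28 genes fell under all 3 scalings. *RPS26B* had 353, 417 and 384 at 60 min, against 2222, 2102 and 3282 untreated (-2.69 ± 0.27), deeper than its copy *RPS26A* (-0.77 ± 0.15). As most of these genes come in near-identical copies, a value can mix them. Among their regulators the coactivator *IFH1* had 89.9, 79.8 and 13.7 at 60 min, against 248, 646 and 217 untreated (-2.82 ± 0.49, and -1.95 without 60 min replicate 3), and the protein kinase A gene *TPK2* rose by 1.67 ± 0.21.

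Translation and tRNA genes followed the ribosome. Of 36 initiation and elongation factor genes 33 fell and 0 rose (median -0.93), 26 of them under all 3 scalings. *TIF4631*, the scaffold eIF4G, had 194, 307 and 275 at 60 min, against 981, 812 and 1044 untreated (-1.89 ± 0.21). The cytosolic aminoacyl tRNA synthetases fell in all 21 cases, by 0.44 to 1.81 on the log2 scale (median -1.17), and 19 of these falls held under all 3 scalings. *MES1*, for methionine, had 889.8, 1174 and 1045 at 60 min, against 3666, 2815 and 3938 untreated (-1.74 ± 0.15). *HTS1*, for histidine, had 872, 419 and 750.3 at 60 min, against 2278, 2119 and 2466 untreated (-1.81 ± 0.33). The 60 min arrays lay below all untreated arrays in these 3 genes. Enzymes that modify or process tRNA fell in 34 of 40 cases, with *TRM1* at -2.55 ± 0.24 and *DUS1* at -2.25 ± 0.27. The 6 not called, looked up after their values were seen, included the splicing endonuclease subunits *SEN2* (-0.26), *SEN15* (-0.34) and *SEN34* (0.28). In the nuclear exosome and its partners 16 of 19 genes fell, led by the helicase *MTR4* (78.7, 66.0 and 72.8 at 60 min, against 336, 439 and 417 untreated) and the nuclease *RRP6* (-2.02 ± 0.22). The members that rose were *NRD1*, with 1153, 1165 and 1071 at 60 min, against 453, 460.3 and 643 untreated (1.14 ± 0.14), and its partner *NAB3* (0.69 ± 0.16), which together end the transcription of short noncoding RNAs.

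Nucleotide synthesis fell with few exceptions. Of 29 purine genes 23 fell and 1 rose (median -1.04). *GUA1*, the last enzyme of GMP synthesis, had 772, 988 and 724 at 60 min, against 3772, 3688 and 4547 untreated (-2.28 ± 0.17), and *IMD4*, the enzyme before it, fell by 2.22 on the log2 scale. *BAS1*, the activator of purine genes, had 50.5, 59.8 and 47.7 at 60 min, against 276, 491 and 320.2 untreated (-2.74 ± 0.33). All of them were clear of the untreated arrays. Of 17 pyrimidine genes 12 fell and 2 rose (median -1.13). *URA7*, a CTP synthase, had 309, 574 and 451 at 60 min, against 2712, 2639 and 3974 untreated (-2.83 ± 0.26), and *URA1* had 1128, 1164 and 903 at 60 min, against 5107, 4422 and 5209.7 untreated (-2.21 ± 0.16). *YNK1*, the nucleoside diphosphate kinase, which makes triphosphates for RNA and DNA, went the other way with 2875, 2128 and 2247 at 60 min, against 698, 755 and 651 untreated (1.77 ± 0.23). The other riser was *URA10* (1.66), the minor copy of an enzyme of the pathway, named after its value was seen.

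Amino acid synthesis was lower in 39 of 54 genes outside the arginine and sulfur pathways, 20 of them under all 3 scalings (median -0.69). *ARO9*, an aromatic aminotransferase that acts in breakdown, was the strongest of 2 that rose, with 2128, 2049.5 and 2144 at 60 min, against 478, 814 and 452 untreated (1.91 ± 0.36). *ARG1* fell by 1.63 on the log2 scale. In sulfur and methionine metabolism 15 of 26 genes fell and 3 rose. Among those that fell, both of the methyl cycle, *SAH1* (1589, 1603 and 1472 at 60 min, against 4549, 5166 and 4822 untreated) fell by 1.64 and *ADO1* by 1.47 on the log2 scale, while *MET3*, the first step of sulfate assimilation, rose by 1.27 ± 0.19.

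Several groups of cell division genes were lower. All 13 genes of daughter cell separation fell, by 1.33 to 2.63 on the log2 scale (median -1.72), under all 3 scalings. *DSE2*, a wall glucanase secreted by daughters, had 935, 746 and 931 at 60 min, against 4740.3, 4455 and 5915 untreated (-2.53 ± 0.18), and *EGT2* had 291, 213 and 290.5 at 60 min, against 1539, 1633 and 1349.9 untreated (-2.52 ± 0.18). Neither overlapped. Genes of anaphase and mitotic exit fell in 12 of 15 cases, the polo kinase *CDC5* with 171, 182 and 195 at 60 min, against 653, 506 and 847 untreated (-1.84 ± 0.19). Of 15 cyclin and kinase inhibitor genes 9 fell, among them *CLN1* (-1.43 ± 0.23) and *CLB1* (-1.34 ± 0.21). Of 14 histone genes 3 rose and 6 fell (median -0.07), and of 15 genes of microtubules, spindle and kinetochore 3 rose and 6 fell (median -0.01). The deepest fall among histones was that of *HTB2*, an H2B gene, which had 444, 398 and 472 at 60 min, against 2367, 2416 and 3274 untreated (-2.60 ± 0.19). *HO*, the endonuclease of mating type switching that mother cells express in G1, fell by 2.87 on the log2 scale (adjusted p = 5.74e-08). Among the genes that rose, the spindle checkpoint gene *MAD2* changed by 1.08 ± 0.13 and *BIM1*, a microtubule end protein, by 1.09 ± 0.15.

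Genes of membranes, the cytoskeleton, nuclear transport and nutrients changed in both directions. In lipid synthesis 15 of 35 genes fell, 11 of them under all 3 scalings, and 4 rose. *INO2*, the activator of phospholipid genes, had 46.7, 51.6 and 63.8 at 60 min, against 288, 313 and 310.2 untreated (-2.50 ± 0.38), and its antagonist *OPI1* had 301, 182 and 205 at 60 min, against 1067, 1198 and 1034 untreated (-2.29 ± 0.25). Activator and repressor thus both fell, without overlap. The actin cytoskeleton rose in 19 of 38 genes and fell in 3. *ARC35* of the Arp2/3 complex had 958, 935 and 983 at 60 min, against 321, 385 and 342 untreated (1.46 ± 0.13) and the capping protein *CAP1* rose by 1.51 ± 0.20, while the formin *BNI1* fell (-1.23 ± 0.20) and *ACT1* read -0.51 ± 0.13, a sign that turned to 0.22 after quantile normalization. Under that scaling *ACT1* was called higher in limma (adjusted p = 0.0115). Among nuclear pore and transport genes 32 of 50 fell, 23 of them under all 3 scalings, and 2 rose. The importin *KAP123*, which carries ribosomal proteins, had 238, 357 and 229.9 at 60 min, against 1851, 1432 and 1911 untreated (-2.67 ± 0.25). Zinc, copper and iron genes fell in 19 of 36 cases, 12 of them under all 3 scalings, with the zinc-regulated *ZPS1* at -2.10 ± 0.39, and the copper metallothionein *CRS5* rose by 1.67 ± 0.23. The phosphatase *PHM8* had 1098, 963 and 787 at 60 min, against 66.1, 89.8 and 51.0 untreated (3.81 ± 0.37).

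The arrays taken 15 min after UV from the same strain show which of these changes came late. Between 60 and 15 min limma called 2219 genes (52.3%), 806 higher at 60 min (19.0%) and 1413 lower (33.3%), and under all 3 scalings 798 were higher (18.8%) and 741 lower (17.5%). Of the calls 36.3% were higher after centring, 69.2% in the deposited values and 51.8% after quantile normalization, so that counts under all 3 scalings are given beside those after centring. The 3′ to 5′ ratio was lower at 60 min without overlap for *ACT1* (1.13 to 1.26 at 60 min, against 1.28 to 1.32 at 15 min) and overlapped for *SRB4* (2.71 to 4.32 at 60 min, against 4.21 to 5.38 at 15 min) and *SPT15* (2.58 to 3.40 at 60 min, against 3.01 to 3.81 at 15 min). Its part in this comparison was not tested. *HBT1*, a protein gene tied to cell shape, had 1843, 991 and 1512 at 60 min, against 104, 64.6 and 61.7 at 15 min, a difference of 4.23 ± 0.32 (adjusted p = 1.11e-09). Its untreated signals were 58.3, 74.5 and 107, and all 3 arrays at 15 min lay within that range. *NQM1* (3.74 ± 0.19), *HUG1* (3.74 ± 0.23), *TKL2* (3.28 ± 0.32), *GND2* (3.27 ± 0.23), *ALD3* (3.23 ± 0.36) and *PAI3* (2.88 ± 0.26) were also among the 8 genes with the largest positive difference between 60 and 15 min. *NCA3*, a gene of mitochondrial ATP synthase expression, had 486, 699.6 and 552 at 60 min, against 52.7, 134 and 65.8 at 15 min (2.89 ± 0.57), with 127, 323 and 166 untreated. The 60 min arrays lay above all 15 min and all untreated arrays, but its change at 60 min against untreated (1.59 ± 0.57) was not called without 60 min replicate 2, untreated replicate 1 or untreated replicate 3 (adjusted p up to 0.0833).

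Other genes were lower at 60 than at 15 min. *DBP2* had 376, 586 and 361 at 60 min, against 3458, 5153 and 4052 at 15 min (-3.28 ± 0.24, adjusted p = 8.14e-10). *MIS1*, a mitochondrial enzyme of folate metabolism, had 205, 103 and 216 at 60 min, against 1016, 1178 and 1088 at 15 min (-2.72 ± 0.32), and *YVH1*, a phosphatase that acts in ribosome assembly, had 92.4, 137 and 112 at 60 min, against 573, 1011 and 655 at 15 min (-2.69 ± 0.21). The times did not overlap in these genes. Between 15 min and untreated cells none of the 3 was called, with -0.33 for *DBP2* (adjusted p = 0.298), -0.04 for *MIS1* (adjusted p = 0.938) and -0.14 for *YVH1* (adjusted p = 0.642). The aminoacyl tRNA synthetases behaved alike. All 21 were lower at 60 than at 15 min (median -1.27), 19 of them under all 3 scalings, whereas 0 of 21 were called between 15 min and untreated cells (median 0.12). Among ribosomal protein genes 46 of 47 of the large subunit (44 under all 3 scalings) and 33 of 33 of the small subunit (29 under all 3) were lower at 60 than at 15 min. Of 50 processome genes 22 were lower at 15 min than untreated (median -0.57), and 47 of 50 were lower at 60 than at 15 min (median -1.55), 39 of them under all 3 scalings. *GUA1* had 772, 988 and 724 at 60 min, against 3476, 4437 and 4119 at 15 min, and *URA1* had 1128, 1164 and 903 at 60 min, against 5263, 5460.4 and 5905 at 15 min. Their 15 min arrays thus lay near or above the untreated ones.

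Some genes that had moved by 15 min were not called between 60 and 15 min. *RTC3* had 4459, 3586 and 3653 at 60 min, against 3222, 2509 and 2435 at 15 min (0.52 ± 0.46, adjusted p = 0.351), and *HSP42* had 3935, 3127 and 3901 at 60 min, against 5914, 4654 and 4813 at 15 min (-0.49 ± 0.27, adjusted p = 0.131). Of the 34 genes under Msn2 and Msn4, 33 had risen at 15 min (median 2.85), and 13 were higher at 60 than at 15 min, with a median difference over the list of 0.74 after centring, 1.12 in the deposited values and 1.38 after quantile normalization. *TRA1*, a scaffold of histone acetyltransferases, had 197, 178 and 187 at 60 min, against 168, 155 and 171 at 15 min, with 893, 725 and 756 untreated. Its difference between 60 and 15 min was 0.18 ± 0.24 (adjusted p = 0.546), and 0.57 in the deposited values, where it was called. *IFH1* and *BNI1* were low at both times as well, with differences of -0.06 ± 0.49 (*IFH1*) and 0.09 ± 0.20 (*BNI1*) between 60 and 15 min. *SSN3*, the kinase of Mediator, had 103, 95.8 and 106 at 60 min, against 56.0, 42.9 and 78.6 at 15 min (0.83 ± 0.22, adjusted p = 0.00311), and 209.8, 327 and 207 untreated, which places it between the other times. *RNR1* had 707, 859.9 and 755 at 15 min, below every 60 min array (0.61 ± 0.15, adjusted p = 0.00147), and *RNR4* differed by 0.24 ± 0.10 between 60 and 15 min (adjusted p = 0.055). These differences are after centring. The median difference of all genes was -0.13 after centring and 0.26 in the deposited values. A gene not called after centring, such as *RNR4*, may thus be called in the deposited values, as *TRA1* was. Mitochondrial ribosomal protein genes were lower in 15 of 59 cases at 15 min against untreated, and 32 of 59 were higher at 60 than at 15 min (median 0.39), 31 of them under all 3 scalings. The comparisons of 60 min with untreated and with 15 min share the 60 min arrays.

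**Figure D4:**
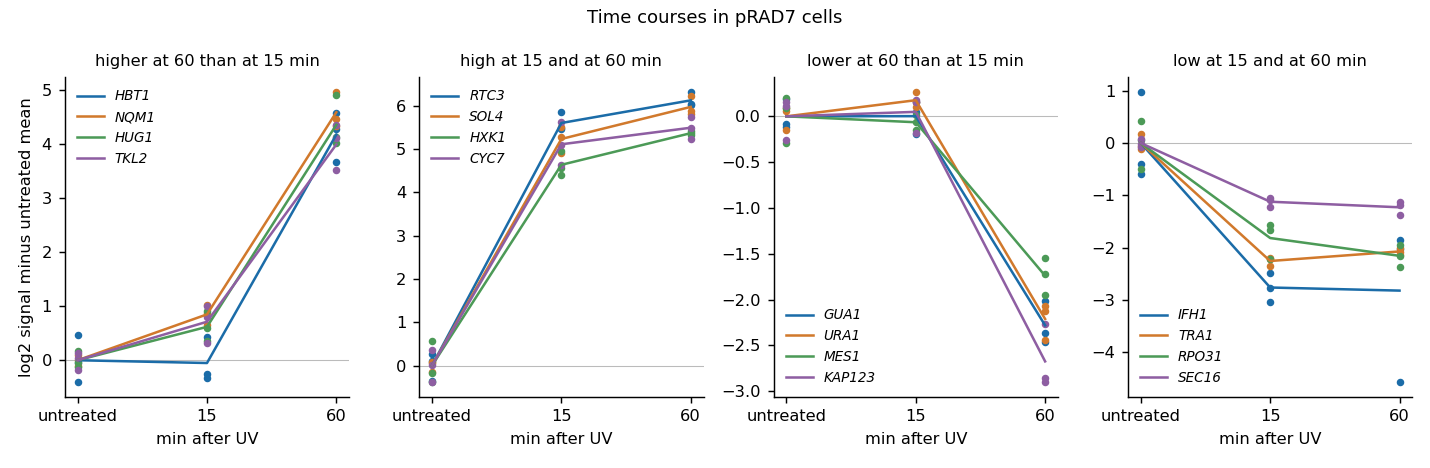
Log2 centred signal minus the untreated mean (vertical axis) in untreated pRAD7 cells, 15 min and 60 min after UV (horizontal axis, equally spaced and not to scale in time) of 16 genes in 4 panels, with points for single arrays and lines through the means. *HBT1* stays near its untreated level at 15 min and at 60 min lies 4.23 above its 15 min mean, while *RTC3* is high at both times and 1 array of *IFH1* at 60 min stands apart from the rest.

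The psocs strain, whose *RAD7* is mutated in its SOCS box so that Rad4 is no longer ubiquitinated, shares no array with pRAD7 and gave nearly the same response at 60 min. In psocs 2748 genes were called (64.8%), 1307 higher (30.8%) and 1441 lower (34.0%). Of the genes called in either strain 1162 rose in both, 1336 fell in both and 0 moved in opposite directions, which is 90.9% of the pRAD7 calls and 90.9% of the psocs calls. Across the 4242 genes, which are not independent replicates, the changes correlated with Pearson r = 0.986 and Spearman rho = 0.977. *HUG1* changed by 4.42 in psocs, against 4.36 in pRAD7, and *DBP2* by -4.24 in psocs, against -3.61 in pRAD7. The difference between the responses was tested as an interaction, and limma called 0 genes (0.0%), with 35 at an unadjusted p under 0.05, 40 in the deposited values and 52 after quantile normalization. The median SE of that difference was 0.25 on the log2 scale, so that small differences between the strains would not have been detected.

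**Figure D5:**
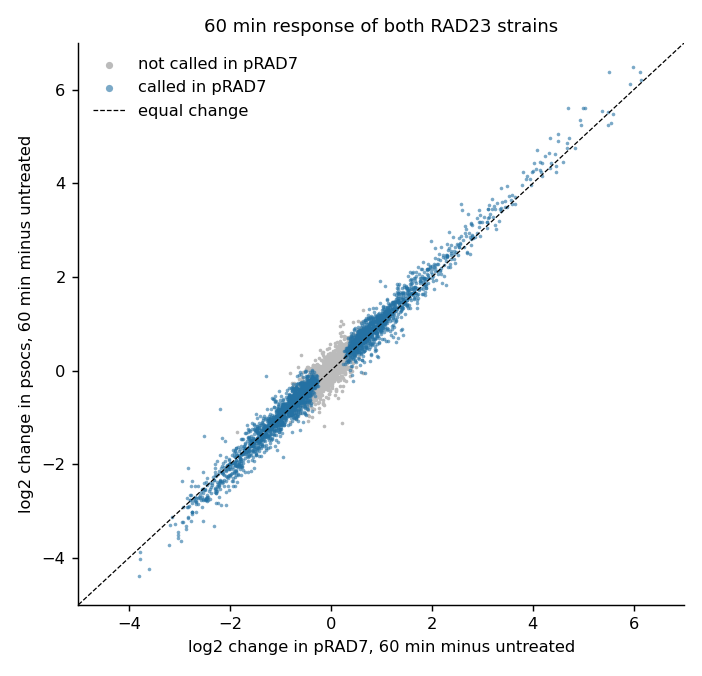
Log2 change at 60 min against untreated of 4242 genes in pRAD7 (horizontal axis) and psocs (vertical axis), in blue where the gene was called in pRAD7 and grey otherwise, with a dashed line of equal change. The points follow the line (Pearson r = 0.986), and 0 genes differed between the strains in the interaction.

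The response differed in the *rad23*Δ strain with the same plasmid, which was measured on 2 arrays a group. The interaction called 1273 genes (30.0%), 788 higher and 485 lower in the *rad23*Δ response, and the share that was higher was 61.9% after centring, 21.1% in the deposited values and 39.5% after quantile normalization. Of the 8 genes with the largest positive difference between 60 and 15 min in pRAD7, 6 were called in the interaction, all negative, and 2, *HUG1* and *NCA3*, were not. These genes were picked on the pRAD7 60 min arrays, which the interaction subtracts. The choice by itself favours a negative sign, so no conclusion is drawn from it. *HBT1* differed by -3.76 (adjusted p = 9.88e-06) and *NQM1* by -2.98, whereas *RNR3* (-0.23, adjusted p = 0.658) and *HUG1* (0.24, adjusted p = 0.656) were not called.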

How the data were processed

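Per the labels, RNA of 30 yeast samples was hybridised to Affymetrix Yeast S98 arrays. The deposited intensities are MAS 5.0 signals on a linear scale, which the authors scaled to one trimmed mean per array (499.8 to 499.9 over the middle 96% of values). MAS5 and Affymetrix Expression Console are named in the submitters' processing notes, with versions not given in the sources used here. Scaling by a trimmed mean leaves array medians apart when many genes move, so values under the 10th percentile (8.50) were set to it, log2 was taken and each array was centred on its median. Of 9335 probe sets, 6504 had 1 gene name. A gene was represented by its brightest probe set (5656 genes), genes under the 25th percentile of mean log2 signal (6.53) were left out, and 4242 were tested. Group means of all 30 arrays in 12 groups were fitted in R 4.3.3 by lmFit and trended eBayes of limma 3.58.1 and p-values adjusted by Benjamini-Hochberg per comparison. Errors are SE. The array number limits precision (median SE 0.18).

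The genes named are those the study discusses, up to 12 per direction with the largest change among called genes without overlap and with the higher group above the median of all genes, up to 4 called members per list with the largest change together with the member that changed most the other way, and up to 8 per direction with the largest difference between 60 and 15 min. Members of gene pairs, strain markers and genes marked as looked up or named after their values were seen are named besides. Members, gene lists and gene pairs were chosen with earlier results of these data known. Alternatives were no filter, a stricter filter, no floor, deposited values without centring, quantile normalization, a fit to the compared arrays, a replicate block, the mean of probe sets, no trend and each array left out. On simulated data of 4242 genes for 60 min against untreated, 46% of 1.5-fold, 94% of 2-fold, 98% of 4-fold and 100% of 8-fold changes were called, and 3.98% of calls were false. Only 50 genes were changed at each fold, with independent noise and no shift in scaling between arrays. In the real data 64.8% of genes were called and scaling mattered, so the false share of the real calls is not known from this. Promoter motifs were not analysed here. Figures were drawn with matplotlib 3.10.9.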

Additional observations from a re-analysis of the deposited data

Results flagged for a closer look

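The 60 min response of the *rad23*Δ strain with the same plasmid differed from that of pRAD7 in 1273 genes in the interaction test of limma, with 2 arrays a group in *rad23*Δ. Of the 12 genes that rose most in pRAD7, 3 were called in that test and 9 were not, and of the 12 that fell most, 3 were called and 9 were not. Of the 8 genes per direction with the largest difference between 60 and 15 min, 6 of the higher and 4 of the lower were called. All these sets were picked on the pRAD7 60 min arrays, which the interaction also uses. The choice by itself favours a sign opposite to the change in pRAD7. For the called genes of these sets the *rad23*Δ response minus the pRAD7 response was -3.76 for *HBT1*, -3.16 for *FMP16*, -2.98 for *NQM1*, -2.67 for *TKL2*, -2.52 for *RTN2*, -2.40 for *CTT1*, -2.38 for *ALD3*, -1.97 for *GND2* and -1.39 for *PAI3*. It was positive for the called genes that fell in pRAD7, at 1.78 for *MIS1*, 1.58 for *DBP2*, 1.52 for *AAH1*, 1.36 for *YVH1* and 1.25 for *RPF2*. Among the genes the study discusses that were called it was -1.73 for *GPG1*, -1.16 for *TEL1*, -0.92 for *RNR1*, -0.69 for *DUN1*, 0.75 for *RFX1* and 0.93 for *SML1*. All these values are after centring. The median of this difference over all genes was 0.15 after centring, -0.27 in the deposited values and -0.03 after quantile normalization. Positive values are thus smaller in the deposited values, and calls of modest size may depend on scaling.

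Probe sets without a single gene name entered no gene test. In a fit of their own 498 of 690 were called at 60 min against untreated, 134 higher and 364 lower (72.2%, median -0.49).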

How the results depend on the processing

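The count of genes changed at 60 min was 2749, and it was 3328 without the filter on dim genes, 1884 with the stricter filter, 2744 to 2770 with no floor, the deposited values, quantile normalization, a fit to the compared arrays, the mean of probe sets or no trend, and 2536 to 2602 with an array left out. Of these the number higher was 1219, against 804 with the stricter filter, which tests fewer genes, and 1097 to 1191 with an array left out, and the number lower was 1402 to 1469 with an array left out. Between 60 and 15 min, 806 genes were higher, against 468 with the stricter filter and 1737 in the deposited values, and 1413 were lower, against 774 in the deposited values. Leaving out an array gave 1836 to 2125 genes there, 642 to 777 higher and 1194 to 1348 lower. The *rad23*Δ interaction gave 841 genes without *rad23*Δ 60 min replicate 2 (841 to 1194 over the arrays left out, against 1273), and the psocs interaction 0 in each case. Under quantile normalization the sign turned for the median of glycolysis (0.10) and for *ACT1* (0.22), *MF(ALPHA)1* (0.16), *SML1* (0.20), *SSA2* (0.35) and *VMA3* (0.11), and without 60 min replicate 3 for *RNR1* (-0.056), which was not called. In limma after quantile normalization *ACT1* (adjusted p = 0.0115), *MF(ALPHA)1* (0.0235) and *SSA2* (0.00222) were called higher, the reverse of their main call. *SML1* and *VMA3* were not called there. The cause of these turns was not tested. Of the 327 genes counted under the naming rule 324 were called, and 294 of these kept their call and direction in every alternative. In at least 1 alternative 27 lost the call and 5 were reversed, and a gene can count in both. Genes not called that were named only as pair members or after their values were seen are outside this count. Arrays of the same replicate number share only a number, with correlations of their deviations of 0.05, -0.10 and -0.05, and with the replicate block 2778 genes were called in the fit to all 30 arrays and 2668 in the fit to the 6 arrays.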

Other observations

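Genes of chromatin complexes were lower more often than higher. Of 33 genes of SAGA, NuA4 and the remodelling complexes 19 fell, 12 of them under all 3 scalings, and 1 rose (median -0.43). *TRA1* fell by 2.07, *RSC2* of the RSC remodeller by 1.88 and the remodeller *CHD1* by 1.70 on the log2 scale. Mediator, which acts at the start of transcription, was even in this respect, with 5 of 22 genes higher and 5 lower, the tail subunit *GAL11* with -1.02 ± 0.15. Messenger RNA decay was lower in 13 of 32 genes, 7 of them under all 3 scalings, and higher in 5. Over all genes 36.1% were lower, and 24.6% under all 3 scalings, so that this share is near the background. The genes that rose were led by the decapping scavengers *DCS2* (4.95 ± 0.53) and *DCS1* (2.43 ± 0.21) and the decapping activator *EDC2* (2.32 ± 0.21), and *SKI3* of the cytoplasmic exosome cofactor fell (-1.47 ± 0.26).

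Cell wall and membrane genes were divided. Of 39 cell wall genes 8 rose and 15 fell, 12 of the latter under all 3 scalings (median -0.29). Over all genes 28.7% were higher and 36.1% lower, so that the share of falls is near the background. *SPI1*, a wall protein of stationary phase, read 3.37 ± 0.39, *PIR3* 2.55 ± 0.39 and the transglycosylase *UTR2* -2.26 ± 0.23. The ceramidases *YPC1* (3.08 ± 0.56) and *YDC1* (1.98 ± 0.19) rose, and *SUR2*, a hydroxylase of sphingolipid synthesis, fell (-1.28 ± 0.18). In peroxisomes and beta oxidation 9 of 22 genes rose and 3 fell, with *FOX2* at 1.18 ± 0.17.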
